A study of Mus musculus with 9 samples.

Results

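Complex III, complex IV and ATP synthase are the last 3 machines of oxidative phosphorylation, and their nuclear-encoded subunit genes are described here in mouse cardiomyocytes. A gene was included where its row of the count table had an Ensembl identifier that the mm10 annotation gives as protein-coding and names Uqcr (complex III), Cox4 to Cox8 (complex IV) or Atp5 (ATP synthase). This gave 44 of the 55487 identifiers, under 43 symbols, since 2 identifiers are both named Atp5o. There were 8 in complex III, 18 in complex IV and 18 in ATP synthase, on 18 chromosomes. The rule goes by gene name, so it leaves out Cyc1, the cytochrome c1 subunit of complex III, and Ndufa4, a subunit of complex IV.

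In a study of the long noncoding RNA Firre, 9 RNA libraries were made from isolated mouse cardiomyocytes, 3 in each of 3 groups. The Firre group received an AAV9 vector for LncFirre overexpression, AAV9 being an adeno-associated virus serotype that reaches heart muscle well. The negative control, written AAV9-VC in the protocol, received a control vector of the same serotype. For the blank control the titles say no more than that it is a blank. The strain, age and sex of the mice, the promoter of the vectors, the dose, the time after infection and whether animals or isolated cells were infected are not stated in the labels. The samples are called biological replicates without naming animals or cultures, so p-values set group differences against the spread of these samples, and that spread may be technical. The groups cannot be told apart from any lot of vector, culture or sequencing that goes with them.

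Complex III takes electrons from ubiquinol and hands them to cytochrome c, and complex IV takes them from cytochrome c and gives them to oxygen. Both move protons across the inner mitochondrial membrane, and ATP synthase lets protons flow back and uses that flow to make ATP. Each complex joins what mitochondrial DNA encodes of it to a larger number of subunits encoded in the nucleus. Heart muscle, which beats without rest, holds a dense network of mitochondria. Several complex IV subunits have another gene used mainly in heart and skeletal muscle.

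Firre itself measured 62.9, 69.7 and 62.6 CPM (counts scaled to the size of the library) in the Firre libraries, 32.5, 34.4 and 32.7 CPM in negative control libraries and 34.0, 37.2 and 30.2 CPM in blank control libraries. Its fold change was 1.96 against the negative control (log2 fold change 0.97, SE 0.07). Counts assigned to genes ran from 19639687 to 22697016 in the Firre libraries, from 19252992 to 20868139 in the negative control and from 15591542 to 20193373 in the blank control. The 44 identifiers together took 1.65% ± 0.0285 of these counts in the Firre group, 1.13% ± 0.0241 in the negative control and 1.17% ± 0.0398 in the blank control (SD, n = 3 each). The lowest Firre library, at 1.62%, lay above the highest control library, at 1.21%. Blank control replicate 1 was 0.88 above the mean of the other blank libraries for Atp5o and 0.50 below it for Uqcrfs1 on the log2 scale.

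Cardiomyocyte markers were abundant in every library. Myh6, the fast heart myosin heavy chain, averaged 24541 ± 969 CPM in the Firre group, 15315 ± 1028 CPM in the negative control and 15492 ± 742 CPM in the blank control (SD, n = 3 each). Of 10 such markers, 9 rose and none fell in the Firre group against the negative control by edgeR's quasi-likelihood test at an adjusted p under 0.05, and their summed level was 51783 to 54749 CPM in the Firre libraries, 34560 to 37354 CPM in the negative control and 35171 to 36703 CPM in the blank control. Markers of other heart cells went the other way. All 8 fibroblast, 8 macrophage, 6 endothelial, 5 smooth muscle and pericyte and 4 epicardial markers fell against the negative control. In that comparison 27.5% of all genes tested were called higher and 28.4% lower. Summed fibroblast markers were at 4444 to 4987 CPM in the Firre libraries, 9694 to 9898 CPM in the negative control and 9705 to 10174 CPM in the blank control. Macrophage markers summed to 11.8 to 12.7 CPM in the Firre libraries, against 66.2 to 72.0 CPM in the negative control and 82.7 to 97.9 CPM in the blank control, with C1qa at 0 counts in all 3 Firre libraries. Endothelial markers summed to 235 to 248 CPM in the Firre libraries, against 658 to 669 CPM in the negative control and 718 to 749 CPM in the blank control. Epicardial markers summed to 32.0 to 33.3 CPM in the Firre libraries, 118 to 125 CPM in the negative control and 106 to 114 CPM in the blank control. In these bulk samples, fewer cells of a type and less RNA per cell cannot be told apart.

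The subunit genes rose together in the Firre group. Of 44 identifiers, 40 passed the filter on low counts, and 38 of these 40 rose against the negative control, 1 fell and 1 did not pass the test. Across all 15633 genes tested, 27.5% were called higher and 28.4% lower in the same comparison. The median log2 fold change of the 40 was 0.54, a fold of 1.46, with a range of −0.84 to 0.91, while the median of all genes tested was 0.00. For 38 genes every Firre library lay above every negative control library, and for 1 gene every Firre library lay below, against 30.8% and 31.5% of all genes tested. Against the blank control, 36 of the 40 rose and 1 fell, with a median of 0.43, where 27.3% of all genes were called higher and 28.9% lower. Every Firre library lay above every blank control library for 36 genes and below for 1, against 29.5% and 31% of all genes tested. These are the same Firre libraries, so the 36 genes called higher in both comparisons are not separate evidence.

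**Figure D1:**
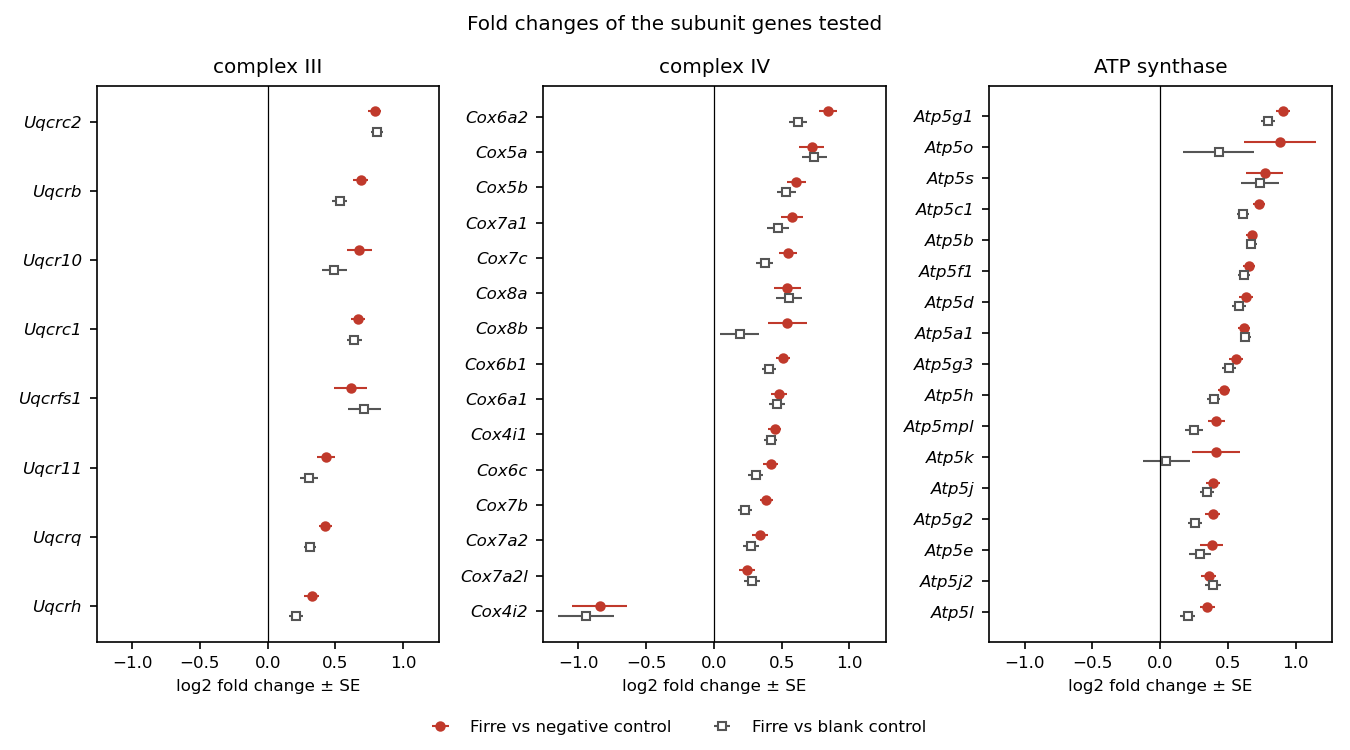
Log2 fold change (horizontal axis) of each tested subunit gene (vertical axis, by complex) in the Firre group against the negative control and against the blank control; points are the fitted values, bars are ± 1 SE, with filled circles for the negative control and open squares for the blank control. Nearly all points lie to the right of 0, with a median of 0.54 against the negative control, and Cox4i2 lies alone to the left at −0.84.

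The rise of the subunit genes was of the size of the rise of the cardiomyocyte markers. Summed over the 44 identifiers, their level was 31.2%, 30.8% and 33.2% of the summed level of the 10 cardiomyocyte markers in the Firre libraries, 29.9%, 31.6% and 32.3% in the negative control and 31.7%, 32.0% and 32.8% in the blank control. The groups overlapped in this ratio. Such sums are led by the most abundant genes, such as Myh6 among the markers and Atp5b, on average 3861 of 16894 CPM in the Firre group, among the subunit genes. The log2 fold changes of the 10 markers against the negative control ran from 0.05 to 1.15, with a median of 0.56. The same ratio was 18.8% ± 0.512 in the Firre group, 18.2% ± 0.689 in the negative control and 18.5% ± 0.0849 in the blank control for ATP synthase (SD, n = 3 each). For complex IV it was 8.43% ± 0.616, 8.68% ± 0.430 and 9.12% ± 0.412 in the same order of groups, and for complex III it was 4.55% ± 0.156, 4.41% ± 0.162 and 4.58% ± 0.0667. What part the differing shares of cardiomyocyte and other RNA have in the fold changes of the subunit genes was not tested.

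**Figure D2:**
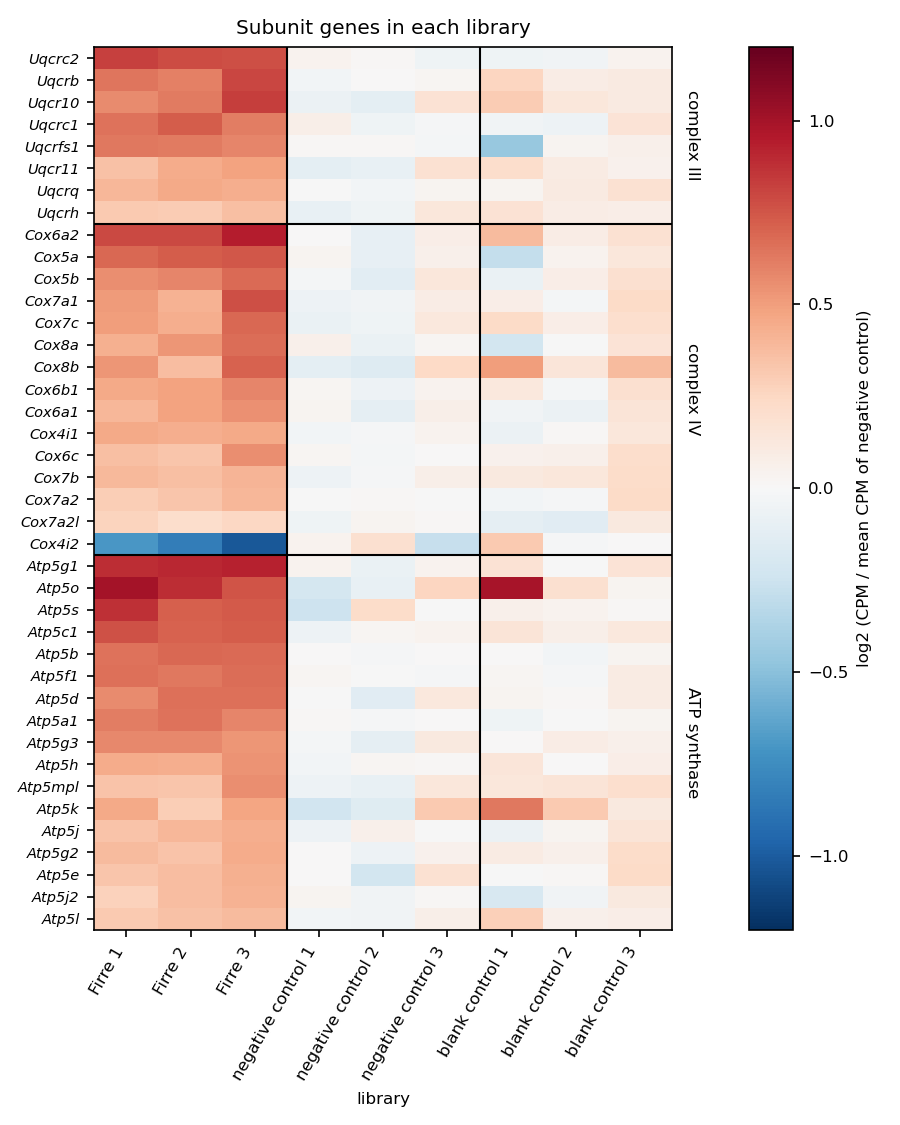
Log2 ratio of each gene's CPM to its mean in the negative control (colour) for the 40 tested subunit genes (rows, by complex) in the 9 libraries (columns: Firre, negative control, blank control). The 3 Firre columns are above 0 in nearly every row, Cox4i2 is below 0 in them, and blank control replicate 1 is low for Uqcrfs1 and high for Atp5o.

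In complex III all 8 genes rose against both controls, with a median log2 fold change of 0.64 against the negative control and 0.51 against the blank control. The 3 genes of the large matrix-facing core proteins and of the Rieske protein had log2 fold changes of 0.61 to 0.79 against the negative control, and the 5 genes of small subunits 0.33 to 0.69. Uqcrc2, one of the core proteins (ENSMUSG00000030884, chr7:120635176-120659524), measured 420.4, 409 and 407 CPM in the Firre libraries, 245, 240.4 and 230.2 CPM in negative control libraries and 231, 232 and 245 CPM in blank control libraries. The Firre libraries did not overlap with the controls. With a log2 fold change of 0.79 (SE 0.05, adjusted p = 2.48e-15) it had the highest fold change of these 8 genes, while Cyc1, outside the name rule, had 0.82. Uqcrc1, the other core protein, measured 673, 709 and 657 CPM in the Firre libraries, 449, 413 and 423 CPM in negative control libraries and 418, 411 and 479 CPM in blank control libraries, and rose with a log2 fold change of 0.67 (SE 0.05, adjusted p = 6.61e-12).

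Uqcrfs1 encodes the Rieske iron-sulfur protein, which takes the first electron from ubiquinol. It measured 257, 257 and 249 CPM in the Firre libraries, 168, 168 and 163 CPM in negative control libraries and 122, 169.8 and 174 CPM in blank control libraries. The Firre libraries lay above all 6 controls, and blank control replicate 1 stood apart below the other controls. The rise had a log2 fold change of 0.61 (SE 0.12, adjusted p = 0.00341), and against the blank control it had a log2 fold change of 0.71 (SE 0.12, adjusted p = 0.00159), or 0.57 without that library.

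Among the small subunits, Uqcrb, which lies near the ubiquinone site, measured 304, 294 and 339 CPM in the Firre libraries, 189.7, 195 and 198 CPM in negative control libraries and 233, 207 and 209 CPM in blank control libraries and rose with a log2 fold change of 0.69 (SE 0.05, adjusted p = 3.56e-12). Uqcr10 measured 196, 203 and 235 CPM in the Firre libraries, 126, 122 and 149 CPM in negative control libraries and 163, 145 and 142 CPM in blank control libraries, with a log2 fold change of 0.68 (SE 0.09, adjusted p = 4.98e-05). Uqcrh, the acidic hinge protein that helps cytochrome c dock, had the smallest rise of the complex. It measured 152, 151 and 157 CPM in the Firre libraries, 115, 118 and 134 CPM in negative control libraries and 138, 130.1 and 129 CPM in blank control libraries, with a log2 fold change of 0.33 (SE 0.05, adjusted p = 8e-06). Uqcrq, a small membrane subunit, measured 259, 269 and 266 CPM in the Firre libraries, 197, 193 and 202 CPM in negative control libraries and 202, 213 and 224 CPM in blank control libraries, and Uqcr11, the smallest subunit, 125, 134 and 138 CPM in the Firre libraries, 90.6, 92.7 and 112 CPM in negative control libraries and 114, 105 and 102 CPM in blank control libraries. Both had a log2 fold change of 0.43, and in both the Firre libraries lay above all 6 controls.

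Complex IV held the one gene that fell. Of its 15 tested genes, 14 rose against the negative control and 13 against the blank control, with medians of 0.51 and 0.41. Against the negative control, Cox4i1, Cox5a, Cox5b, Cox6b1, Cox6c, Cox7b and Cox7c, the subunits that most tissues share, had log2 fold changes of 0.39 to 0.72. Cox5a, a matrix-side subunit, measured 284, 292 and 295 CPM in the Firre libraries, 180.2, 165 and 184 CPM in negative control libraries and 144, 182 and 194 CPM in blank control libraries, and rose with a log2 fold change of 0.72 (SE 0.09, adjusted p = 2.87e-05). Cox5b, its zinc-binding neighbour, measured 399.6, 407 and 434 CPM in the Firre libraries, 268, 249 and 299 CPM in negative control libraries and 257, 287 and 312 CPM in blank control libraries, with a log2 fold change of 0.61 (SE 0.07, adjusted p = 1.32e-06). In both genes every Firre library was above every control library, and blank control replicate 1 was the lowest or next to the lowest of the 6 controls.

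The smaller rises of the complex were those of Cox7a2l, Cox7a2, Cox7b and Cox6c. Cox7a2l, also known as SCAF1, links complex III to complex IV in supercomplexes. It measured 128, 123 and 126 CPM in the Firre libraries, 103, 109 and 107 CPM in negative control libraries and 98.8, 96.3 and 115 CPM in blank control libraries, and its log2 fold change of 0.24 (adjusted p = 0.000583) was the smallest among the genes of the 3 complexes that rose. Cox7b, the X-linked subunit, measured 222, 217 and 225 CPM in the Firre libraries, 162, 168 and 178 CPM in negative control libraries and 183, 186 and 197 CPM in blank control libraries, with a log2 fold change of 0.39 (SE 0.05, adjusted p = 5.74e-08), and Cox6c had a log2 fold change of 0.42. Cox6b1, which sits on the side facing cytochrome c, had a log2 fold change of 0.51, and Cox7c of 0.55.

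Subunits 6a, 7a and 8 each have a form used in heart and skeletal muscle (Cox6a2, Cox7a1, Cox8b) and a form found in most tissues (Cox6a1, Cox7a2, Cox8a). All 6 rose against the negative control. Cox6a2 (ENSMUSG00000030785, chr7:128205435-128206387) measured 418, 417 and 463 CPM in the Firre libraries, 243, 226 and 255 CPM in negative control libraries and 314, 257 and 274 CPM in blank control libraries, and rose with a log2 fold change of 0.84 (SE 0.07, adjusted p = 2.37e-09), the highest of the complex. Its partner Cox6a1 measured 443, 470.5 and 492 CPM in the Firre libraries, 343, 311 and 353 CPM in negative control libraries and 325, 320.3 and 375 CPM in blank control libraries, with a log2 fold change of 0.48 (SE 0.06, adjusted p = 2.33e-07). The log2 ratio of Cox6a2 to Cox6a1 averaged −0.12 ± 0.05 in the Firre group, −0.48 ± 0.02 in the negative control and −0.27 ± 0.20 in the blank control (SD, n = 3 each). Firre and negative control libraries did not overlap in this ratio (exact permutation test, two-sided p = 0.1, adjusted p = 0.14 over 7 such quantities; 0.1 is the smallest p that 3 against 3 allows), but the blank control spread across the Firre values.

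Cox7a1 measured 98.8, 92.3 and 118 CPM in the Firre libraries, 66.5, 67.4 and 73.6 CPM in negative control libraries and 73.2, 68.2 and 81.1 CPM in blank control libraries, with a log2 fold change of 0.57 (SE 0.08, adjusted p = 1.14e-05), and Cox7a2 measured 118, 121 and 127 CPM in the Firre libraries, 95.7, 97.3 and 95.6 CPM in negative control libraries and 94.1, 95.6 and 113 CPM in blank control libraries, with a log2 fold change of 0.34 (SE 0.06, adjusted p = 1.21e-05). The log2 ratio of Cox7a1 to Cox7a2 was −0.25 ± 0.14 in the Firre group, −0.48 ± 0.09 in the negative control and −0.44 ± 0.07 in the blank control (SD, n = 3 each). Firre replicate 2, at −0.391, lay just below negative control replicate 3, at −0.378, so these groups overlapped (exact permutation test, p = 0.2, where 0.1 is the smallest possible). A test of 3 against 3 cannot decide whether this ratio differed. Cox8b measured 69.3, 62.0 and 78.4 CPM in the Firre libraries, 44.2, 43.0 and 56.9 CPM in negative control libraries and 68.2, 53.1 and 62.7 CPM in blank control libraries. Against the negative control it rose with a log2 fold change of 0.54 (SE 0.14, adjusted p = 0.0132), while against the blank control the groups overlapped and the log2 fold change was 0.19 (SE 0.14, adjusted p = 0.297; 0.0237 to 0.61 over 12 other settings). Cox8a measured 451, 484 and 533 CPM in the Firre libraries, 349, 318 and 341 CPM in negative control libraries and 288, 335 and 377 CPM in blank control libraries, with a log2 fold change of 0.54 (SE 0.10, adjusted p = 0.00121). The log2 ratio of Cox8b to Cox8a, at −2.81 ± 0.14 in the Firre group, −2.82 ± 0.21 in the negative control and −2.44 ± 0.32 in the blank control (SD, n = 3 each), differed by 0.01 between Firre and negative control (exact permutation test, p = 0.9). Of the 3 pairs, the Firre and negative control libraries did not overlap in Cox6a2 to Cox6a1. Whether the pairs differ from each other was not tested.

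**Figure D3:**
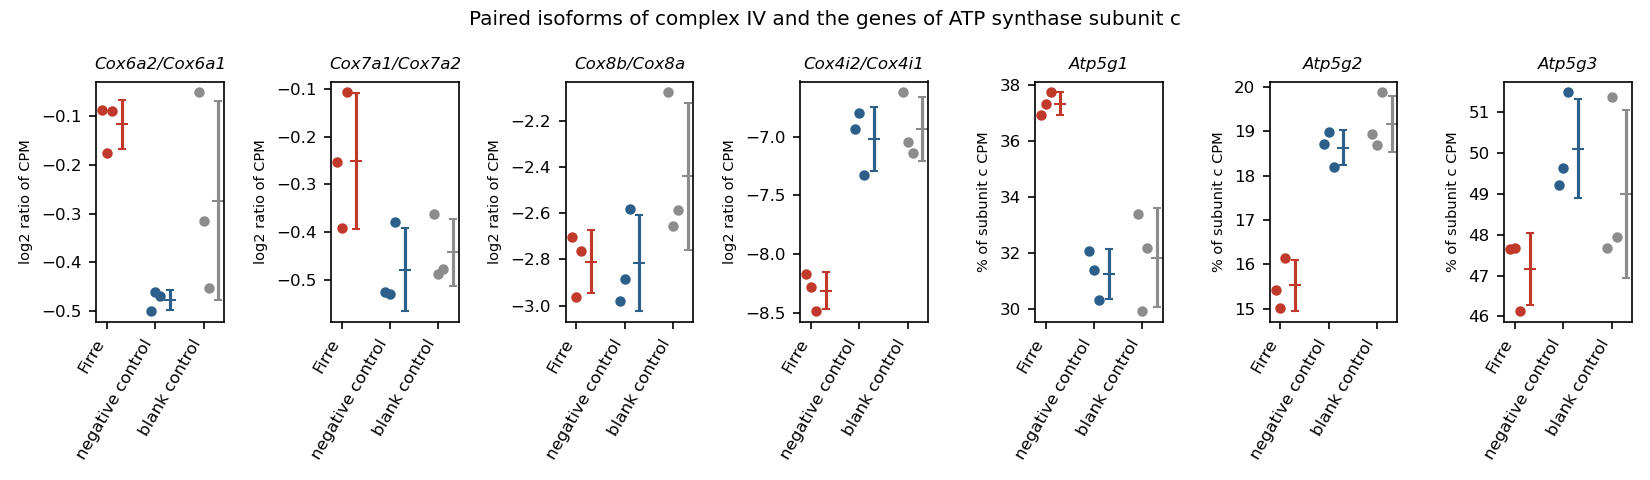
Log2 ratios of isoform pairs of complex IV (Cox6a2 to Cox6a1, Cox7a1 to Cox7a2, Cox8b to Cox8a, Cox4i2 to Cox4i1) and the percent of summed subunit c CPM given by Atp5g1, Atp5g2 and Atp5g3; points are libraries, bars are the mean ± SD of 3, with the Firre group left of the controls. The Firre libraries stand apart from both controls for Cox4i2 to Cox4i1 and for Atp5g1, at 36.9% to 37.7% against 29.9% to 33.4% in the controls.

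Subunit 4 gave the opposite picture. Cox4i1, its general form, measured 654, 644 and 653 CPM in the Firre libraries, 467, 472 and 491 CPM in negative control libraries and 454, 483 and 522 CPM in blank control libraries, and rose with a log2 fold change of 0.45 (SE 0.05, adjusted p = 1.83e-09). Cox4i2, the form known from lung and oxygen sensing (ENSMUSG00000009876, chr2:152754173-152765037), measured 2.28, 2.08 and 1.83 CPM in the Firre libraries, 3.80, 4.23 and 3.06 CPM in negative control libraries and 4.60, 3.66 and 3.71 CPM in blank control libraries. It fell in the Firre group, with a log2 fold change of −0.84 (SE 0.20, adjusted p = 0.000767), and with a log2 fold change of −0.94 (SE 0.20, adjusted p = 0.000241) against the blank control, every Firre library lying below every control library. The log2 ratio of Cox4i2 to Cox4i1 was −8.31 ± 0.16 in the Firre group, −7.02 ± 0.27 in the negative control and −6.93 ± 0.27 in the blank control (SD, n = 3 each; Firre against negative control, exact permutation test, p = 0.1, the smallest possible). The smooth muscle and pericyte markers, cells in which Cox4i2 is also known to be expressed, summed to 1141 to 1243 CPM in the Firre libraries, 2175 to 2492 CPM in the negative control and 2340 to 2571 CPM in the blank control. Against the negative control 5 of 5 of these markers fell, where 28.4% of all genes tested were called lower. Their part in the fall of Cox4i2 was not tested.

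Forms of complex IV subunits known from testis were at or near 0. Cox6b2 had 2, 3 and 10 counts in the Firre libraries, 2, 7 and 6 in the negative control and 9, 6 and 3 in the blank control. Cox7b2 had at most 2 counts in a library and Cox8c had none in any. None of the 3 passed the filter, so none was tested.

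In ATP synthase, 16 of the 17 tested genes rose against the negative control and 15 against the blank control, with median log2 fold changes of 0.56 and 0.43. The 5 genes of the catalytic head and central stalk all rose, by 0.38 to 0.73 on the log2 scale against the negative control. Atp5b, the catalytic beta subunit (ENSMUSG00000025393, chr10:128083273-128090391), had the highest level per length of the whole set. It measured 3804, 3906 and 3874 CPM in the Firre libraries, 2429, 2396 and 2433 CPM in negative control libraries and 2426, 2357 and 2482 CPM in blank control libraries, with a log2 fold change of 0.67 (SE 0.04, adjusted p = 1.1e-14). Atp5a1, the alpha subunit, measured 2346, 2404 and 2297 CPM in the Firre libraries, 1544, 1513 and 1533 CPM in negative control libraries and 1475, 1524 and 1562 CPM in blank control libraries, with a log2 fold change of 0.62 (SE 0.04, adjusted p = 1.14e-13). In both genes the Firre libraries were clear of all 6 control libraries.

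Atp5c1, the gamma subunit that turns inside the head, measured 553, 533 and 539 CPM in the Firre libraries, 312, 331 and 336 CPM in negative control libraries and 364, 343 and 356 CPM in blank control libraries, and rose with a log2 fold change of 0.73 (SE 0.04, adjusted p = 1.03e-14). Atp5d, the delta subunit, had a log2 fold change of 0.63. Atp5e, the small epsilon subunit, measured 69.5, 71.4 and 73.8 CPM in the Firre libraries, 55.4, 47.1 and 62.7 CPM in negative control libraries and 54.8, 55.6 and 64.6 CPM in blank control libraries, with a log2 fold change of 0.38 (SE 0.08, adjusted p = 0.000676), the smallest rise of the head. Here the lowest Firre library and the highest control library were close together but did not overlap.

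The c subunit forms the rotor ring in the membrane, and 3 genes (Atp5g1, Atp5g2, Atp5g3) encode the same mature protein behind different import sequences. Atp5g1 (ENSMUSG00000006057, chr11:96068852-96075670) measured 318, 322 and 325 CPM in the Firre libraries, 176, 162 and 176 CPM in negative control libraries and 193, 171 and 192 CPM in blank control libraries. It rose with a log2 fold change of 0.91 (SE 0.05, adjusted p = 1.47e-15), a fold of 1.87 and the highest log2 fold change of all 40 genes. Atp5g3 measured 410.3, 411 and 397 CPM in the Firre libraries, 270.4, 256 and 299 CPM in negative control libraries and 276, 293 and 286 CPM in blank control libraries, with a log2 fold change of 0.56 (SE 0.05, adjusted p = 6.24e-11). Atp5g2 measured 133, 129 and 139 CPM in the Firre libraries, 103, 97.9 and 106 CPM in negative control libraries and 109.7, 107 and 119 CPM in blank control libraries, with a log2 fold change of 0.39 (SE 0.05, adjusted p = 3.05e-07). Within the summed CPM of the 3 genes, Atp5g1 made up 36.9%, 37.3% and 37.7% in the Firre libraries, 32.1%, 31.4% and 30.3% in the negative control and 33.4%, 29.9% and 32.2% in the blank control. The Firre libraries lay above all 6 controls. The share of Atp5g2 was 15.5% ± 0.577 in the Firre group, 18.6% ± 0.397 in the negative control and 19.2% ± 0.629 in the blank control (SD, n = 3 each), and that of Atp5g3 was 47.2% ± 0.885, 50.1% ± 1.21 and 49.0% ± 2.07 in the same order of groups. For each of the 3 shares the exact permutation test of Firre against negative control gave p = 0.1, the smallest it can give (adjusted p = 0.14 over the 7 quantities). The blank control reached the Firre values for Atp5g3 but not for Atp5g1 or Atp5g2.

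Because the 3 genes give the same mature protein from separate loci, their start regions are shown, as the 100 bases just before the start in the RefSeq GRCm38.p6 promoter table. All 3 lie on the minus strand and are written 5′ to 3′ along the gene. Capitals mark a match to a motif of a known regulator of respiratory genes. In Atp5g2 (chr15:102671048-102671147) this is GCGCATGCGC, the palindrome bound by NRF1, 42 to 33 bases before the start. In Atp5g3 (chr2:73911327-73911426) it is TNAAGGTCA on the other strand, the element bound by estrogen-related receptors (ERR), 52 to 44 bases before the start. In Atp5g1 (chr11:96075632-96075731) none of the 4 motifs searched was found in the 300-base window.
Atp5g1: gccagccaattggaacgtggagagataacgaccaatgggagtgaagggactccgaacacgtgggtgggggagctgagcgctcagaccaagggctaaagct
Atp5g2: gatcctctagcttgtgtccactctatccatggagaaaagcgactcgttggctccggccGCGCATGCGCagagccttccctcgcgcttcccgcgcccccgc
Atp5g3: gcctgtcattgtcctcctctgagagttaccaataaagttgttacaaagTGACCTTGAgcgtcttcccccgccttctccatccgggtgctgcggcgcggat

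The peripheral stalk holds the head still while the rotor turns. Its gene Atp5f1 (subunit b) measured 538, 526 and 542 CPM in the Firre libraries, 346, 338 and 336 CPM in negative control libraries and 345, 337 and 363 CPM in blank control libraries, and rose with a log2 fold change of 0.66 (SE 0.04, adjusted p = 8.88e-14). Atp5h (subunit d) had a log2 fold change of 0.47, and Atp5j (coupling factor 6) of 0.39. Atp5o, which encodes the OSCP subunit joining stalk and head, was the least certain of the stalk genes. It measured 35.5, 32.8 and 30.0 CPM in the Firre libraries, 15.4, 16.7 and 21.2 CPM in negative control libraries and 35.3, 20.2 and 18.1 CPM in blank control libraries. Blank control replicate 1 reached the Firre values while the other controls lay below all Firre libraries. Against the negative control it rose with a log2 fold change of 0.88 (SE 0.27, adjusted p = 0.0298), but the adjusted p was above 0.05 in 7 of 12 other settings, up to 0.0928. Against the blank control it had a log2 fold change of 0.43 (SE 0.26, adjusted p = 0.215), and without blank control replicate 1 the log2 fold change was 0.78 (adjusted p = 1.55e-06; 1.55e-06 to 0.459 over 12 other settings). Atp5o shares 346 and 356 exonic bases with the antisense genes D430001F17Rik and Gm15976 on the opposite strand. It shares 243 with the other Atp5o identifier, which had 0 counts in every library. D430001F17Rik averaged 3.42 CPM in the Firre group, 1.94 CPM in the negative control and 2.10 CPM in the blank control. Its log2 fold change against the negative control was 0.82 (adjusted p = 0.00733). Gm15976 averaged at most 0.0170 CPM in a group. Whether reads of these genes were mixed was not tested.

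Among the parts of ATP synthase, the small accessory subunits of the membrane had the lowest median log2 fold change against the negative control, 0.38. Of Atp5j2 (subunit f), Atp5k (subunit e), Atp5l (subunit g) and Atp5mpl, a small proteolipid, 3 rose against the negative control, and the log2 fold changes of the 4 ran from 0.35 to 0.41. Subunits e and g help ATP synthase pair into dimers, which bend the inner membrane. Atp5l measured 158, 163 and 166 CPM in the Firre libraries, 125, 123 and 134 CPM in negative control libraries and 156, 133 and 134 CPM in blank control libraries, with a log2 fold change of 0.35 (SE 0.06, adjusted p = 4.21e-06). Atp5j2 measured 289, 308 and 318 CPM in the Firre libraries, 243, 230.4 and 241 CPM in negative control libraries and 209, 231 and 258 CPM in blank control libraries, with a log2 fold change of 0.36 (SE 0.06, adjusted p = 8.61e-06). Atp5k was the gene that did not pass the test. It measured 40.5, 36.2 and 41.1 CPM in the Firre libraries, 25.2, 26.7 and 36.7 CPM in negative control libraries and 45.7, 36.7 and 31.9 CPM in blank control libraries, and negative control replicate 3 and blank control replicates 1 and 2 reached the Firre values. The log2 fold change was 0.41 (SE 0.18, adjusted p = 0.0871) against the negative control, or 0.59 (adjusted p = 0.000222) without negative control replicate 3 (0.000222 to 0.225 over 12 other settings). Against the blank control it was 0.04 (adjusted p = 0.85), −0.07 without blank control replicate 3 and −0.00481 with library totals as the scale.

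Atp5s, coupling factor B, is a protein associated with the complex rather than a core subunit. It was the least abundant of the tested ATP synthase genes and measured 10.1, 9.03 and 9.14 CPM in the Firre libraries, 4.63, 6.40 and 5.46 CPM in negative control libraries and 5.75, 5.66 and 5.54 CPM in blank control libraries, with a log2 fold change of 0.77 (SE 0.14, adjusted p = 1.62e-05).

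Levels were compared between genes as CPM per kilobase of exonic length. This length joins all annotated exons of a gene, and which transcripts were expressed was not determined, so the order of genes depends on the annotation. In ATP synthase, Atp5b stood highest at 911 ± 12.2 CPM per kb in the Firre group, 571 ± 4.70 in the negative control and 572 ± 14.7 in the blank control, followed by Atp5a1 at 749 ± 17.2, 488 ± 5.04 and 485 ± 13.9 (SD, n = 3 each). Atp5s was lowest at 4.62, 2.69 and 2.77 CPM per kb in the same order of groups. Complex III was the most even, with the highest gene, Uqcr10, 2.92 times the lowest, Uqcrh, in the Firre group, and ratios of highest to lowest of 2.42 in the negative control and 2.79 in the blank control. In complex IV, Cox8a was highest at 790, 542 and 538 CPM per kb and Cox4i2 lowest at 2.62, 4.69 and 5.06 in the same order of groups. Median levels of the 40 genes were 172 CPM per kb in the Firre group, 114 in the negative control and 119 in the blank control. With the longest transcript as the length, a choice made after the data were seen, Atp5b, Atp5s and Cox4i2 kept their places, Uqcrb was the highest of complex III, and Cox4i1 took the place of Cox8a in both controls.

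**Figure D4:**
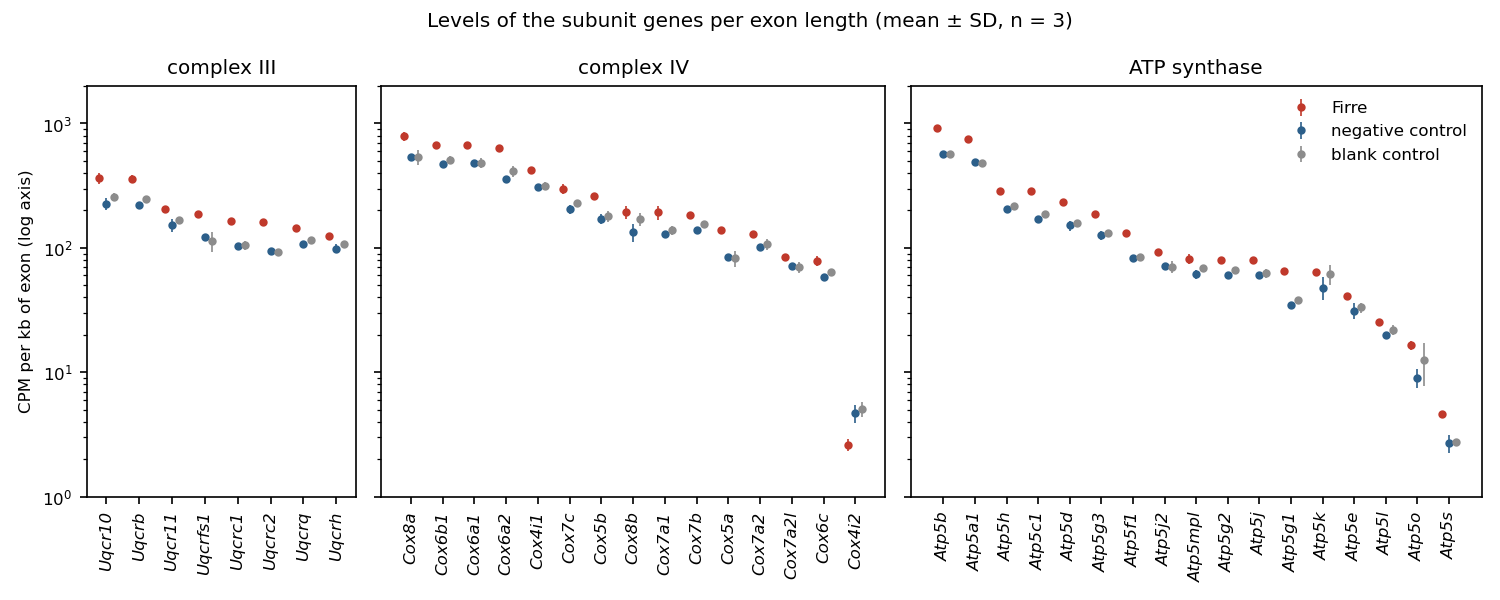
CPM per kilobase of exonic length (vertical axis, log scale) of the 40 tested subunit genes (horizontal axis, by complex) in the Firre group, the negative control and the blank control; points are the mean of 3 libraries and bars ± SD. Complex III genes fill a narrow band, while ATP synthase runs from Atp5s to Atp5b and complex IV from Cox4i2 to Cox8a.

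The negative control was set against the blank control to ask what the control vector alone goes with. Of the 40 genes, 0 were called by edgeR's quasi-likelihood test and 0 by DESeq2. An unadjusted p under 0.05 in the edgeR test was found for 12 of the 40, among them Cox7b, Cox6a2 and Uqcrb. Of all 15633 genes tested, 1331 had one, a smaller share. Of all genes tested, 0.0576% were called, 0.0064% higher and 0.0512% lower. The median log2 fold change of the 40 was −0.09, with a range of −0.45 to 0.10, and 7 were positive. The median of all genes tested was −0.00441, and 74.9% of them lay above the median of the 40. For 6 genes every negative control library lay below every blank control library, and for 0 above, where 6.87% and 6.21% of all genes did so. Without the low-count filter 2 genes were called, Cox8b at −0.35 (adjusted p = 0.00244) and Cox6a2 at −0.22 (adjusted p = 0.0059).

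The 14 tested genes whose longest transcript is at least 1500 bases, a cut that was not planned, had a median log2 fold change of 0.66 against the negative control. The 26 shorter ones had 0.49. No test was run on this difference. Without a cut, the Spearman correlation of longest transcript with this log2 fold change was 0.16 over the 40 genes. It was −0.02 in complex III, −0.22 in complex IV and 0.17 in ATP synthase. Over the 40 genes it was 0.38 for the change against the blank control. The blank control level gave correlations of 0.32 and 0.51 with the 2 changes. The longer ones include the large subunits Uqcrc1, Uqcrc2, Atp5a1, Atp5b and Atp5c1 and also the small ones Atp5e, Atp5j2 and Atp5l, whose log2 fold changes were 0.38, 0.36 and 0.35.

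Most genes on a list of assembly factors, cytochromes, carriers and other subunits rose as well. The subunit genes on it are Cyc1 and, in the complex IV group, Ndufa4. Of the 41 genes on the list, 40 were tested, and 36 rose and 0 fell against the negative control, with a median log2 fold change of 0.54. Of all genes tested, 27.5% were called higher and 28.4% lower there. Against the blank control 32 rose and 0 fell, where 27.3% of all genes were called higher and 28.9% lower. Cycs, cytochrome c, which carries electrons between complex III and complex IV, averaged 459 ± 17.9 CPM in the Firre group, 254 ± 8.27 CPM in the negative control and 255 ± 9.52 CPM in the blank control (SD, n = 3 each), a log2 fold change of 0.86 against the negative control (SE 0.05, adjusted p = 7.23e-16). Slc25a4, the heart form of the ADP/ATP carrier that exports ATP from mitochondria, averaged 1382 ± 30.8 CPM in the Firre group, 799 ± 24.9 CPM in the negative control and 826 ± 41.6 CPM in the blank control, a log2 fold change of 0.79 (adjusted p = 1.82e-15). Uqcc1, an assembly factor of complex III, averaged 71.4 ± 2.59 CPM in the Firre group, 38.7 ± 0.205 CPM in the negative control and 38.9 ± 1.29 CPM in the blank control, a log2 fold change of 0.88 (adjusted p = 7.84e-14). All 6 complex III assembly factors and 21 of 25 tested genes of the complex IV group rose against the negative control, with medians of 0.68 and 0.49. Cox16, Sco2, Pet100 and Cmc1 did not pass the test, and Pet117 was not tested. All 4 genes for ATP synthase assembly or inhibition rose against the negative control, the lowest being the inhibitor Atpif1, at 0.22. Of these 4, 3 rose against the blank control, and Atpif1, at 0.04 (adjusted p = 0.582), did not pass the test.

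Of the 6 mitochondrially encoded subunits of these complexes, 2 rose and 0 fell against the negative control, a share near the 27.5% of all genes called higher. The catalytic subunit mt-Co1 measured 34722, 29939.9 and 32482 CPM in the Firre libraries, 22277, 24828 and 22584 CPM in negative control libraries and 26328, 24681 and 23006 CPM in blank control libraries, a log2 fold change of 0.48 against the negative control (adjusted p = 8.97e-08). The cytochrome b gene mt-Cytb had a log2 fold change of 0.27 (adjusted p = 0.000147). The others, mt-Co2, mt-Co3, mt-Atp6 and mt-Atp8, did not pass the test and spread widely between replicates. In the Firre libraries mt-Co2 measured 142, 104 and 146 CPM, far below mt-Co1. Values of genes with near-identical copies elsewhere in the genome are uncertain. Whether these genes lost reads to such copies was not tested, so their lack of a call is not a measure of their transcripts. For mt-Co3 the levels were 194, 47.5 and 77.0 CPM in the Firre libraries, 40.1, 45.1 and 49.3 CPM in negative control libraries and 134, 53.4 and 40.5 CPM in blank control libraries. Together the 6 took 4.20% ± 0.308 of assigned counts in the Firre group, 3.25% ± 0.194 in the negative control and 3.46% ± 0.232 in the blank control (SD, n = 3 each). Most of this was mt-Co1, on average 32381 of 43050 CPM in the Firre group.

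Of 12 regulators of respiratory gene transcription, 7 rose and 2 fell against the negative control, where 27.5% of all genes were called higher and 28.4% lower. Ppargc1a, the coactivator PGC-1alpha that drives mitochondrial biogenesis, averaged 84.8 ± 5.62 CPM in the Firre group, 32.5 ± 1.79 CPM in the negative control and 32.2 ± 3.48 CPM in the blank control (SD, n = 3 each), a log2 fold change of 1.38 (SE 0.07, adjusted p = 1.67e-16). Esrra, the receptor ERRalpha that PGC-1alpha acts with, averaged 108 ± 7.01 CPM, 63.3 ± 4.29 CPM and 58.8 ± 2.85 CPM in the same order of groups, a log2 fold change of 0.77 (adjusted p = 5.07e-12), and the related coactivator Ppargc1b had a log2 fold change of 0.82 (adjusted p = 5.12e-10). Pprc1 and Gabpb1 fell, with log2 fold changes of −0.30 and −0.33 (adjusted p = 8.76e-05 and 0.00228). Nrf1, at −0.02, and Gabpa, the DNA-binding part of the ETS-family factor NRF-2, at −0.09, did not pass the test.

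**Figure D5:**
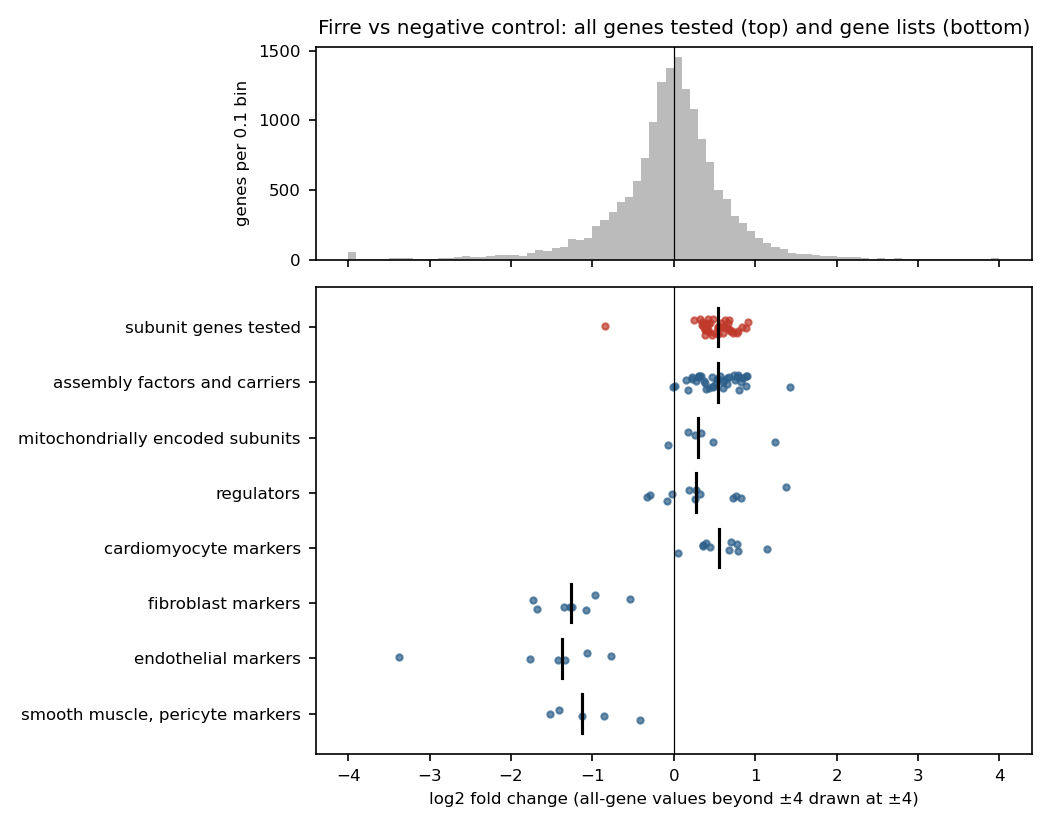
Log2 fold change of the Firre group against the negative control (horizontal axis, with values of all genes beyond its ends drawn at the ends) for all genes tested (histogram) and for the tested subunit genes, the assembly and carrier genes, the mitochondrially encoded subunits, the regulators and the cardiomyocyte, fibroblast, endothelial and smooth muscle or pericyte markers (strips of points, 1 per gene, with the median as a bar). Of 40 subunit genes and 40 assembly and carrier genes, 39 each lie to the right of 0, with Cox4i2 and Pet100 to the left, and the 10 cardiomyocyte markers lie to the right. Their medians are 0.54, 0.54 and 0.56, and the fibroblast, endothelial and smooth muscle or pericyte markers lie to the left.

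Promoter windows, 250 bases before to 50 after the start, were found in the RefSeq GRCm38.p6 table for 31 of the 44 identifiers. Of these, 3 had several windows, and the one listed first was used, as for every gene of the table. Both strands were searched for the ERR element TNAAGGTCA, the NRF1 palindrome GCGCATGCGC, the ETS core CCGGAAG bound by NRF-2, and the YY1 element AANATGGCG. No matches of different motifs overlapped in the windows of these genes. The ETS core was found in 9 of 31 windows (29.0%), in 17.2% of the genes tested and in 9.12% of all genes of the table. The NRF1 palindrome was found in 4 of 31 (12.9%), 1.95% of genes tested and 0.977% of all genes. YY1 was found in 2 of 31 (6.45%), 5.01% and 2.51%, and the ERR element in 1 of 31 (3.23%), 0.769% and 1.26%, in the same order of sets. A match is a description of letters and not a bound site. Among tested genes with a window, the 9 with the ETS core had a median log2 fold change of 0.43 (0.33 to 0.54) and the 20 without it 0.59 (0.24 to 0.91), a difference for which no test was run. Atp5j, with a log2 fold change of 0.39, holds the ETS core and the YY1 element in its other window alone and was counted as without them.

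The ETS core is shown in one gene of each complex, in capitals, as the 100 bases before the RefSeq start, 5′ to 3′ along the gene, all on the minus strand. Atp5h (chr11:115419920-115420019) has it 38 to 32 bases before the start, Cox6b1 (chr7:30626115-30626214) 28 to 22 bases before the start, both on the other strand as CTTCCGG, and Uqcr11 (chr10:80406822-80406921) 66 to 60 bases before the start. All 3 genes rose, with log2 fold changes of 0.47, 0.51 and 0.43 against the negative control.
Atp5h: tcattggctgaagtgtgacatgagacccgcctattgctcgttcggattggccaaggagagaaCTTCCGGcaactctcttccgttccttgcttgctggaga
Cox6b1: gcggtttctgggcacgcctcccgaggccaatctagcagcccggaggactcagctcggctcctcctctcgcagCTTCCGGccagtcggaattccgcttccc
Uqcr11: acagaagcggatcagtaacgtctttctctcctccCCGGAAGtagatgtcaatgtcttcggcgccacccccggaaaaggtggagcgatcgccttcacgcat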

How the data were processed

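The authors deposited raw read counts, 1 row for each Ensembl gene, without normalization. Per the submitters' processing notes, the build was mm10 and the tools included STAR, featureCounts, Trimmomatic and FastQC, without versions or parameters. Per the labels' protocols, ribosomal RNA was depleted and the libraries are directional, while the molecule is given as polyA RNA. Whether counting used the strand is not stated. Values of genes that overlap, on either strand, are therefore uncertain, as are those of genes with near-identical copies elsewhere in the genome. Lines that name no gene held 16.3% to 17.4% of all counts per library and were left out. These lines are written as HTSeq writes them, while the notes name featureCounts, so which program counted the reads is not settled. Symbols, positions and lengths came from GENCODE M21 (mm10), which named 55227 of 55487 identifiers.

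The members and gene lists were chosen with earlier results of these data known. All 9 libraries entered 1 fit of edgeR's quasi-likelihood test (edgeR 4.0.16 in R 4.3.3, TMM factors, filterByExpr with a minimum count of 10 and total of 15, 6 residual degrees of freedom). The Benjamini-Hochberg method was used to adjust its p-values over 15633 genes, with a threshold of 0.05, and all adjusted p-values in the text come from it unless another tool or family is named. CPM is the count scaled to the TMM-adjusted library size, and the SE of a log2 fold change is its size over the square root of F. The common biological variation was 5.96%. Replicates of a group differed by more than sampling noise (chi-square per degree of freedom 3.27 to 7.39 over all genes), so each counted as 1. For the subunit genes the chi-square per gene was 5.60 to 35.3, highest between blank control replicates 1 and 3. Isoform ratios were compared by exact permutation tests. Values in every library are given for the 4 largest and 4 smallest changes of each complex, isoform pairs and genes lower or not called. Other lists are named by the 3 smallest p-values, and other names were added after values were seen. The alternatives were RLE factors, library totals, DESeq2 1.42.0, no low-count filter, the compared groups alone, the replicate number as a block and each replicate left out.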

Additional observations from a re-analysis of the deposited data

How the results depend on the processing

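Against the negative control, 37 to 39 of the 40 genes were called higher and 1 lower in every setting run, and the median log2 fold change ran from 0.47 to 0.60 when 1 library was left out (lowest without Firre replicate 3). Against the blank control, 36 or 37 were called higher and 1 lower in every setting run, with medians of 0.40 to 0.46 without 1 library. The calls that moved were those of Atp5o and Atp5k against the negative control and of Atp5o and Cox8b against the blank control, and the cause was not tested. Against the blank control, Atp5k turned to −0.00481 with library totals and to −0.066 without blank control replicate 3. For the negative control against the blank control, 9 genes of all were called, 28 by DESeq2, 98 without the low-count filter and 0 to 55 with 1 library left out (0 without blank control replicate 1, 55 without blank control replicate 2), and 2 members were lower without the filter. DESeq2 gave an adjusted p for 34 of the 40 there. The median level was 168 CPM per kb in the Firre group with library totals, and with the longest transcript as the length 215 in the Firre group, 152 in the negative control and 165 in the blank control. With the replicate number as a replicate block, 37 genes were called higher and 1 lower against the negative control (Atp5o lost its call, adjusted p = 0.0559), 37 and 1 against the blank control (Cox8b gained one, adjusted p = 0.0291) and 0 between controls. Same-numbered libraries did not deviate together (r from −0.21 to 0.19), so the numbers were not taken to pair the samples. Low counts limit Cox4i2, with an SE of 0.20.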
